A study of Mus musculus with 12 samples.

Results

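Collagens, matrix remodelling genes and stellate cell genes were followed in mouse liver across a high-fat diet and 2 compounds. The group was a list of 37 gene symbols, and all 37 were found among the 50559 genes of the deposited count tables. Of these, 34 had a mean of at least 10 counts and were tested. Lox and Timp1 had too few counts, and Tagln was listed at 0 in all 12 libraries.

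The livers came from C57BL/6N mice in 4 groups of 3 libraries, each library labelled a biological replicate. NCD mice ate normal chow and HFD mice a diet with 60% of its energy from fat, both for 12 weeks. HFD+C1 and HFD+C2 mice ate the high-fat diet and were injected intraperitoneally with compound C1 or C2, 5 mg/kg each day, over the 12 weeks. The series title describes both compounds as inhibitors of CYP4A, a family of fatty acid hydroxylases. The labels give no structure for either compound and do not say whether NCD and HFD mice were injected with a vehicle. Age and sex are not given.

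Liver matrix is built largely by hepatic stellate cells, which lie between the sinusoidal endothelium and the hepatocytes and store vitamin A when quiescent. In injured liver they can turn into myofibroblasts that contract, divide and secrete collagen, and transforming growth factor beta is a main signal for that change. Fibrillar collagens form the tensile fibres of scar, whereas type IV, XV and XVIII collagens belong to basement membranes. Hepatocytes also secrete some matrix proteins, among them plasma fibronectin.

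The shallowest library, NCD replicate 2, held 4281210 reads in genes, and the deepest, HFD replicate 1, held 32124248. The floor of 3 counts stood at 0.701 CPM (counts scaled to a fixed total of gene reads) in the first of these libraries and at 0.0934 CPM in the second. Reads without a gene assignment made up 58.2% of NCD replicate 1 and 47.1% of HFD+C2 replicate 1, against 27.3% to 40.7% elsewhere. NCD replicate 1 also had the lowest summed level of 10 hepatocyte markers, 31383 CPM against 79313 and 82594 CPM in the other NCD libraries and 85715 to 159304 CPM in mice on the diet. Of the 34 tested genes, 10 were at their lowest of the 12 libraries in NCD replicate 1 and 9 in NCD replicate 3, and 7 were at their highest in HFD+C2 replicate 1 and 6 in HFD+C2 replicate 2.

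Promoter sequence was matched by symbol for 24 of the 37 genes (RefSeq, GRCm38.p6). Col1a1 and Fn1, which rose on the diet, were among the 13 without a match. The 250 bases before the annotated start are shown for Col3a1 and Vim, which rose on the diet, and for Col1a2, which did not pass the test. All 3 run 5′ to 3′ in the direction of the gene. Capitals mark matches on either strand to the TATA box (TATAAA), the CCAAT box, the GC box (GGGCGG), the AP-1 site (TGANTCA) or the CAGA box (CAGACA, a motif of SMAD proteins, the carriers of the transforming growth factor beta signal).
Col3a1, chr1:45311288-45311537, plus strand: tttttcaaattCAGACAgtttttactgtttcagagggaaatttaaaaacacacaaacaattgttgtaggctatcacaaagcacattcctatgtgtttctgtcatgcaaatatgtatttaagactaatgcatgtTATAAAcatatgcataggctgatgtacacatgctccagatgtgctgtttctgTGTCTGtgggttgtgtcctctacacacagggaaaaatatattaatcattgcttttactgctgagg
Vim, chr2:13574061-13574310, plus strand: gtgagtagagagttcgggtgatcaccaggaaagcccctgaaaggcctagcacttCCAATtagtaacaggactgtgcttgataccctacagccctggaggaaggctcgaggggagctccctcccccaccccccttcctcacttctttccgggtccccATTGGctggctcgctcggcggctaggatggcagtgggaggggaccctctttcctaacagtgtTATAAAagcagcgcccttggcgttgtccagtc
Col1a2, chr6:4505368-4505617, plus strand: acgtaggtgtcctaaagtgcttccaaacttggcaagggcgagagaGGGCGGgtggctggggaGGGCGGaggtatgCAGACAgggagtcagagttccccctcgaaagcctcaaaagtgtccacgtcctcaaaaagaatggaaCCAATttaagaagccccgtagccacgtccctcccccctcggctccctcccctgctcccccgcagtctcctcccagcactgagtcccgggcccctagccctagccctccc

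TATAAA was present in the windows of Col3a1 and Vim and in 2 of the 24 matched windows, against 12.97% of 27025 windows of the same length, 1 for each gene with a listed start. CCAAT was present in 10 of 24 windows, against 34.5% of all, and GGGCGG in 14 of 24, against 32.9% of all. CAGACA was present in 5 of 24 (Col3a1, Col5a1, Col1a2, Sparc and Acta2), against 17.1% of all, and TGANTCA in 1 of 24 (Col6a1), against 6.87% of all. The CArG box, a motif of serum response factor in smooth muscle genes, had no match in the 24 windows and one in 1.40% of all. The motifs searched do not overlap one another in the 3 windows shown. Each of the 24 windows ends at the first start listed for the gene, and 8 of them reach into the gene's own annotated span from another start. Those of Col15a1 and Pdgfra did so with all 250 bases, that of Col6a2 with 226 and that of Acta2 with 212. The listed windows of Col4a1 and Col4a2, from 250 bases before to 50 bases after each start, lie on opposite strands of chromosome 8 and share 78 bases.

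The first comparison asked what the diet changed. Col1a1, Col3a1, Fn1 and Vim rose in HFD, and none of the 34 genes passed the test as lower. The test was the quasi-likelihood test of edgeR, adjusted over 13864 genes by the Benjamini-Hochberg method, and a gene was called at an adjusted p under 0.05. Of all tested genes 6.03% were called, 2.59% higher and 3.44% lower. At an unadjusted p under 0.05 there were 10 of the 34 genes, where 28.9% of all were. Over the 34 genes the median log2 change was 0.43 and 27 were higher in HFD, against a median of -0.02 and 48.5% higher over all genes. In whole liver, fewer cells of a type and less RNA per cell cannot be told apart. When libraries were scaled by their gene reads alone the median over all genes shifted to -0.24, the median of the list was 0.19 and 20 of the 34 were higher, while the same 4 genes were called together with Col15a1 as lower. With that scaling 1105 of the 13864 genes were called.

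Among the 5 fibrillar collagen genes, Col1a1 (chr11:94936224-94953042), the main chain of type I collagen, changed most. It was at 1.38, 0.844 and 0.781 CPM in NCD replicates 1 to 3, from 16, 4 and 19 counts, and at 6.81, 5.03 and 5.90 CPM in HFD. Every HFD library was above every NCD library. The mean rose from 1.00 ± 0.327 to 5.91 ± 0.890 CPM (SD, n = 3). This was 2.58 on the log2 scale (standard error 0.34, edgeR adjusted p 0.00927). Col3a1 (chr1:45311538-45349706), which encodes type III collagen, was at 7.82, 11.2 and 8.47 CPM in NCD and at 20.9, 18.8 and 21.1 CPM in HFD. The groups did not overlap, with a log2 change of 1.19, a standard error of 0.20 and an edgeR adjusted p of 0.0244.

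Col1a2, the second chain of type I collagen, was at 3.87, 6.12 and 3.62 CPM in NCD and at 7.07, 7.04 and 7.65 CPM in HFD. These groups did not overlap either, but the log2 change of 0.75 did not pass the test (edgeR adjusted p 0.112). Col5a1, a type V chain that joins type I fibrils, was at 2.32 to 3.62 CPM in NCD and 4.11 to 4.50 CPM in HFD (log2 change 0.61, edgeR adjusted p 0.192). Col5a2, its partner chain, overlapped between the groups (log2 change 0.29). In all, 12 of the 34 genes had every HFD library above every NCD library and 3 had every HFD library below, where 19% and 18.1% of all tested genes did so.

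**Figure D1:**
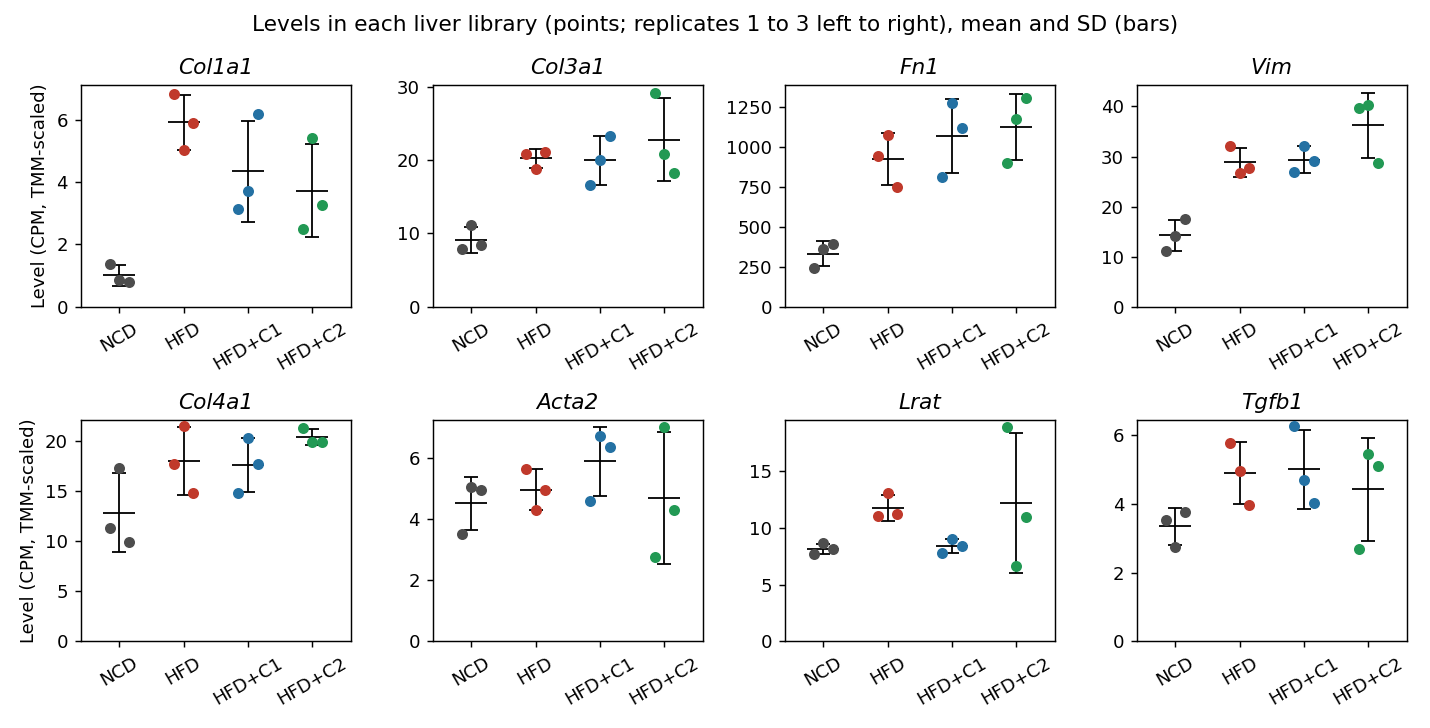
Levels of 8 genes (y axis, CPM scaled by TMM over all 12 libraries) in the NCD, HFD, HFD+C1 and HFD+C2 groups (x axis), with a point for each library and bars for the mean and SD of 3 libraries. For Col1a1, Col3a1, Fn1 and Vim all 9 libraries of mice on the diet sit above the 3 NCD libraries, whereas Acta2 overlaps in all groups and Lrat in HFD+C2 spans 6.69 to 18.9 CPM.

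Type VI and type XIV collagens, which link fibrils to cells and to each other, showed no call. Col6a1 changed by 0.61 on the log2 scale, Col6a2 by 0.50, Col6a3 by 0.10 and Col14a1 by 0.14 (edgeR adjusted p from 0.335 to 0.913). All 4 overlapped between NCD and HFD. The spread was wide in chow: Col6a3 was at 4.47, 0.844 and 2.18 CPM in NCD, against 2.55 to 2.89 CPM in HFD.

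Basement membrane collagens moved in both directions without a call. Col4a2 was at 3.95, 11.8 and 6.53 CPM in NCD and 14.9, 16.0 and 14.1 CPM in HFD (log2 change 1.10, edgeR adjusted p 0.0871). Col4a1, its partner chain and neighbour, was at 11.3, 17.3 and 9.90 CPM in NCD and 17.7, 21.5 and 14.8 CPM in HFD (log2 change 0.54, edgeR adjusted p 0.203). Of the pair, only Col4a2 had groups that did not overlap. Their annotated spans share 85 bases, and how the authors' counting treated such reads is not given in the sources used here.

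Col15a1, a basement membrane collagen, was lower at 2.49, 2.58 and 2.40 CPM in HFD against 8.68, 5.91 and 3.82 CPM in NCD. Its groups did not overlap, but the log2 change of -1.27 did not pass the test (standard error 0.34, edgeR adjusted p 0.0595). Col18a1, whose C-terminal fragment is endostatin and which hepatocytes also make, was at 745, 738 and 733 CPM in HFD and at 268, 754 and 544 CPM in NCD. The lowest of these was NCD replicate 1, the library with the lowest hepatocyte markers. The log2 change was 0.52 (edgeR adjusted p 0.332), and 0.19 without that library.

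Matrix glycoproteins were led by Fn1 (chr1:71585473-71653280), which encodes fibronectin. It was at 240.5, 363 and 391 CPM in NCD and at 945, 1074 and 749 CPM in HFD, with no overlap. The log2 change was 1.495 (standard error 0.25, edgeR adjusted p 0.0237), and without NCD replicate 1 it was 1.29 and still called. Sparc, a collagen-binding protein of remodelling matrix, was at 11.8, 32.5 and 20.2 CPM in NCD and at 43.8, 42.1 and 43.3 CPM in HFD. Here too the groups were apart, with a log2 change of 1.05 that did not pass the test (edgeR adjusted p 0.0825).

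Fbn1, which encodes the microfibril protein fibrillin, was at 5.85, 1.69 and 1.27 CPM in NCD and 1.03, 1.06 and 1.22 CPM in HFD. Its log2 change of -1.40 (edgeR adjusted p 0.163) had groups that did not overlap, and without NCD replicate 1, the highest of the 12 libraries, it was -0.34. The small proteoglycans Dcn (decorin) and Lum (lumican), which bind collagen fibrils, changed by 0.09 and 0.10 on the log2 scale and overlapped between the groups.

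Of the genes for crosslinking and turnover, none was called. Loxl1, a lysyl oxidase that crosslinks elastic fibres, was at 0.258, 0.844 and 0.699 CPM in NCD and 1.03, 1.203 and 1.38 CPM in HFD. NCD rested on 3, 4 and 17 counts, and the log2 change of 1.07 had a standard error of 0.58 (edgeR adjusted p 0.255). Loxl2 changed by 0.47. Lox, the founding member of the family, had at most 9 counts in a library.

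Mmp14, a membrane-bound collagenase, was at 47.2, 36.5 and 33.7 CPM in NCD and 30.8, 25.5 and 32.3 CPM in HFD (log2 change -0.38, edgeR adjusted p 0.225). Its groups did not overlap. Mmp2, the gelatinase that Mmp14 activates, changed by 0.47 with a standard error of 0.54. Of the tissue inhibitors of metalloproteinases, Timp2 changed by 0.24 and Timp3 by -0.46, both with overlapping groups. Timp1, often used as a marker of fibrosis, had 0 counts in all 3 NCD libraries and 4, 2 and 8 in HFD. It had 0, 4 and 7 counts with C1 and 0, 0 and 1 with C2, too few for a fold or a test. Timp1 and Timp3 lie within the annotated spans of Syn1 and Syn3, and strand use in the counting is not given in the sources used here.

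The stellate and myofibroblast genes split. Vim (chr2:13574311-13582826), the intermediate filament protein vimentin found in mesenchymal, endothelial and immune cells, was at 11.2, 14.1 and 17.4 CPM in NCD and 32.1, 26.8 and 27.6 CPM in HFD. The groups were apart, with a log2 change of 1.03, a standard error of 0.21 and an edgeR adjusted p of 0.0376. Acta2, the smooth muscle actin of activated stellate cells, was at 3.52, 5.06 and 4.97 CPM in NCD and 5.64, 4.32 and 4.96 CPM in HFD. These overlapped, and the 95% interval of the log2 change, 0.17, ran from -0.43 to 0.76. Des, a filament of quiescent stellate and muscle cells, changed by -0.19 and Reln, a secreted marker of stellate cells, by -0.16, both overlapping.

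Lrat makes the retinyl esters that stellate cells store. It was at 7.74, 8.65 and 8.14 CPM in NCD and 11.02, 13.1 and 11.2 CPM in HFD, apart from each other, with a log2 change of 0.55 that did not pass the test (edgeR adjusted p 0.104). An annotated lncRNA, Rbm46os, covers the gene. Tagln, a smooth muscle and myofibroblast gene, had 0 counts in all 12 libraries although Myh11, another smooth muscle gene, had at least 11 counts in each. Its annotated span shares 2480 bases with Pcsk7, and the part of that overlap in the zero was not tested.

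In the signalling group, Tgfb1 was at 3.52, 2.74 and 3.78 CPM in NCD and 5.78, 4.96 and 3.99 CPM in HFD. Every HFD library was above the NCD libraries, but the log2 change of 0.54 did not pass the test (edgeR adjusted p 0.216, 95% interval -0.07 to 1.16). The receptor gene Tgfbr2 changed by 0.07 with an interval from -0.38 to 0.51, and Ccn2, a matricellular target of the pathway, by 0.12 with a standard error of 0.61. The platelet-derived growth factor receptors, which drive stellate cell division, changed by 0.38 for Pdgfrb and by -0.40 for Pdgfra. Neither was called, and Pdgfrb had groups that did not overlap.

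**Figure D2:**
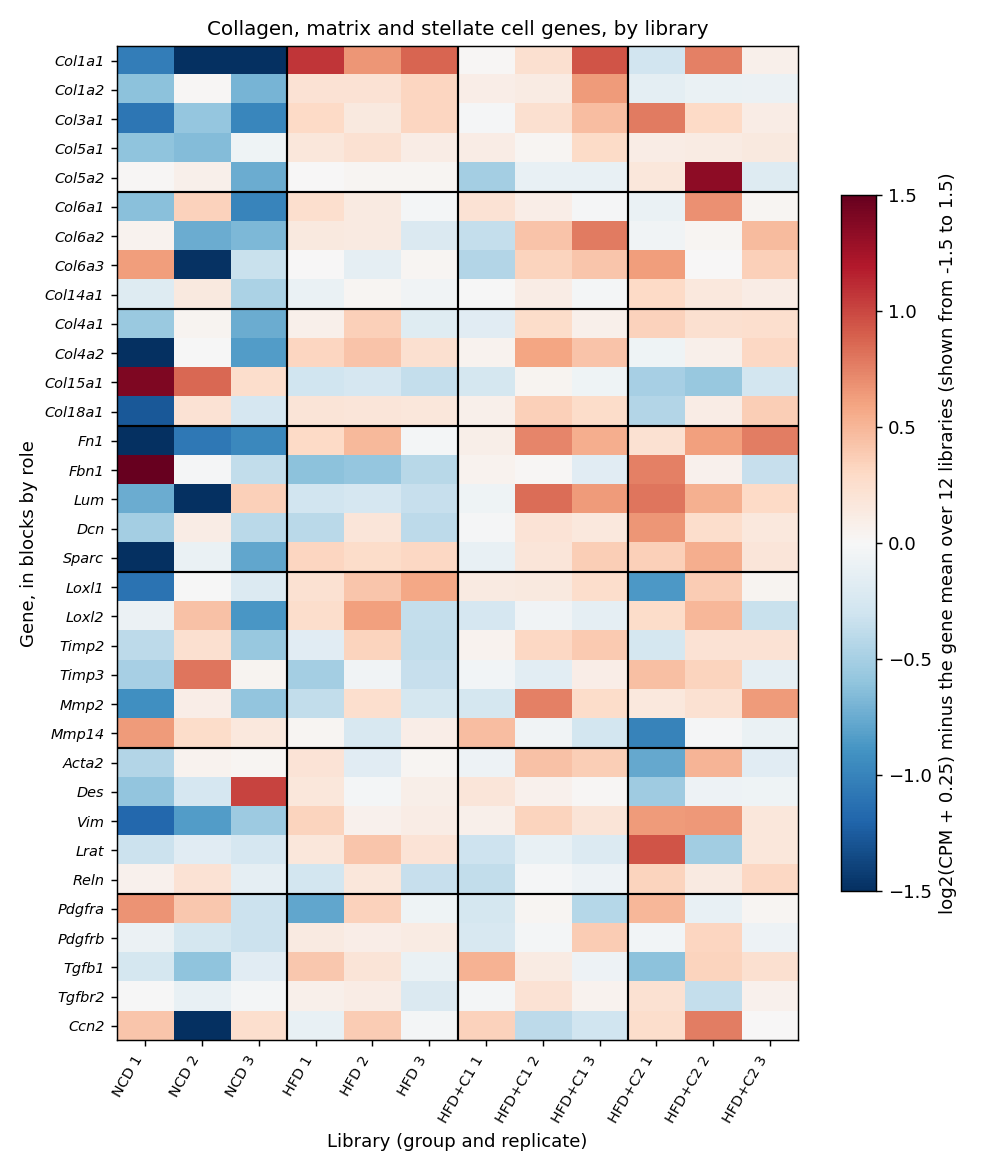
Heat map of the 34 tested genes (rows, in blocks by role, in the order fibrillar, type VI and XIV, and basement membrane collagens, glycoproteins, turnover, stellate and signalling genes) in 12 libraries (columns). Colour is log2(CPM + 0.25) minus the mean of the gene over the 12 libraries, and it shows Col1a1, Col3a1, Fn1 and Vim low in all NCD libraries, with NCD replicate 1 far above the other libraries for Fbn1.

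The spread among NCD libraries was larger than in the other groups. The median coefficient of variation of the 34 genes was 32.5% in NCD, 11.1% in HFD, 15.9% in HFD+C1 and 21.0% in HFD+C2, against 30.5%, 13.8%, 13.7% and 21.2% over all 13864 genes. The calls depended on single libraries: without HFD replicate 1 or 3 none of the 34 was called, with 8 at an unadjusted p under 0.05 in either case, and without HFD replicate 2 only Col1a1 was. The log2 changes without HFD replicate 1 were 2.47 for Col1a1, 1.17 for Col3a1, 1.49 for Fn1 and 0.96 for Vim (edgeR adjusted p from 0.105 to 0.204), and over all genes the calls fell from 836 to 23. Without NCD replicate 1, 6 were called, these 4 with Col4a2 and Sparc, and without NCD replicate 2 these 6 with Col1a2. The calls over all genes rose in both of these fits, to 1838 of 13412 and to 1276 of 14352 genes. Without NCD replicate 3, Col3a1 was not called (edgeR adjusted p 0.0544), while Col1a1, Fn1 and Vim were and Col15a1 was called as lower. In that fit the calls over all genes fell to 487, and they fell to 131 and 25 when HFD replicate 2 or 3 was dropped. Over 6 other settings with all libraries, Col1a1, Col3a1 and Fn1 were called in 6 and Vim in 5.

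The pathway around these genes was described with 5 further lists. Of 20 collagen processing genes 16 were tested and edgeR called 0 in the diet comparison, where 6.03% of all genes were called. At an unadjusted p under 0.05 there were 5 of the 16, where 28.9% of all genes were. Serpinh1, the collagen chaperone HSP47, was at 4.04, 5.06 and 4.40 CPM in NCD and 9.33, 10.5 and 6.75 CPM in HFD (log2 change 1.01, edgeR adjusted p 0.0506). P3h3, of the prolyl 3-hydroxylase family, changed by 1.87 (edgeR adjusted p 0.0583). Of 24 transforming growth factor beta genes 23 were tested, and 13 of them were higher in HFD and 10 lower, called or not. Over all genes 48.5% were higher.

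Of 32 other matrix genes 27 were tested and 1 was called, where 6.03% of all genes were. That was Col27a1, a fibrillar collagen of cartilage, which fell. It was at 14.96, 20.04 and 12.9 CPM in NCD and 4.55, 5.42 and 4.23 CPM in HFD (log2 change -1.72, edgeR adjusted p 0.0120). Of 18 other stellate cell genes 15 were tested and Colec11 and Steap4 were called as higher, where 2.59% of all genes were. Colec11, a collectin that stellate cells express, was at 19.9, 24.3 and 19.5 CPM in NCD and 44.7, 36.5 and 42.7 CPM in HFD (log2 change 0.99, edgeR adjusted p 0.0294). Steap4, a metalloreductase also expressed by hepatocytes, changed by 1.58 (edgeR adjusted p 0.04998). Of 23 protease and inhibitor genes 11 were tested and edgeR called 0. An unadjusted p under 0.05 was found for 5 of the 11, where 28.9% of all genes had one. Adamts1, a secreted metalloproteinase, changed by 1.03, and Timp4 by -5.08, with 59, 0 and 6 counts in NCD and 3, 1 and 0 in HFD. The 5 lists had median log2 changes of 0.09 (collagen processing), 0.17 (transforming growth factor beta), 0.25 (other matrix), -0.58 (proteases) and -0.12 (other stellate), each beside -0.02 over all genes.

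Markers of the cells that carry matrix genes were summed for each library. The 10 stellate markers, 4 of them also in the list described here, summed to 87.1 to 98.3 CPM in NCD and 122 to 136 CPM in HFD, with no overlap. Of these 10, 7 were higher in HFD and 3 lower, and 1 was called, where 6.03% of all genes were. That marker was Colec11, whose mean went from 21.2 CPM in NCD to 41.3 CPM in HFD. The 10 portal fibroblast markers summed to 12.2 to 16.9 CPM in NCD and 22.8 to 29.2 CPM in HFD, most of it Gsn, the 1 of 5 tested that was called. The 12 endothelial markers overlapped at 126 to 160.5 CPM in NCD and 139 to 177 CPM in HFD, where Lyve1 was the 1 called, and the 12 macrophage markers at 229 to 341 and 214 to 282 CPM. The 6 adipocyte markers had Cidec, a lipid droplet gene, called (log2 change 4.50), while the defining gene Adipoq had at most 3 counts in a library, and no mesothelial marker had enough counts for the diet comparison. The 8 cholangiocyte markers summed to 24.3 to 33.2 CPM in NCD and 33.3 to 40.03 CPM in HFD, and the 7 B and plasma cell markers to 4.01 to 6.53 and 2.09 to 3.78 CPM, both without overlap and with none called. Only 4 of the cholangiocyte markers were tested, 1 higher in HFD and 3 lower, with a median log2 change of -0.44. Of the B and plasma cell markers 3 were tested, 1 higher and 2 lower. The 6 smooth muscle markers summed to 5.27 to 9.20 CPM in NCD and 9.91 to 12.2 CPM in HFD, with none of 3 tested called. The 10 hepatocyte markers summed to 31383 to 82594 CPM in NCD and 97260 to 115505 CPM in HFD, also without overlap. Of these 10, 7 were higher in HFD and 3 lower, and 0 were called. An unadjusted p under 0.05 was found for 5 of them, where 28.9% of all genes had one. The part of cell numbers in the changes was not tested.

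**Figure D3:**
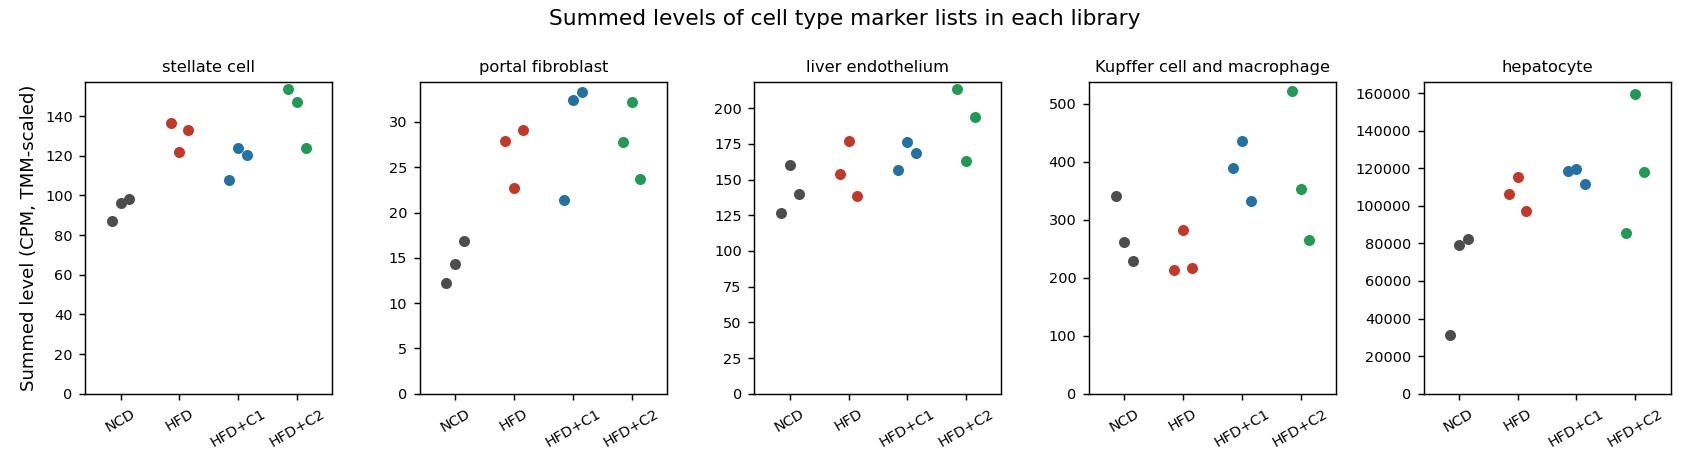
Summed levels (y axis, CPM scaled by TMM) of 5 marker lists in each library (points), by group (x axis). Stellate and portal fibroblast sums in NCD lie below every library on the diet, macrophage sums are at 333 to 437 CPM in HFD+C1 against 214 to 282 CPM in HFD, and NCD replicate 1 has the lowest hepatocyte sum.

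The compound groups were also set against chow, which places them without the HFD libraries. In HFD+C1, edgeR called Col1a1, Col3a1, Fn1 and Vim higher than in NCD among 34 tested, where 3.4% of 13534 genes were called (1.47% higher, 1.93% lower), and none lower. In HFD+C2 it called Col3a1, Fn1 and Vim higher, where 1.6% of 13691 genes were called (0.533% higher, 1.07% lower), and none lower. At an unadjusted p under 0.05 there were 8 and 10 of the 34, where 28% and 22.4% of all genes were. With C1, 9 of the 34 stood apart from NCD as higher and 1 as lower, where 18.3% and 17.9% of all genes did. With C2 these were 10 and 2, where 15.2% and 15.3% did. These comparisons share the NCD libraries with the diet comparison, so a call that recurs is not independent of it.

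Col1a1 was at 3.14, 3.70 and 6.17 CPM in HFD+C1 and at 2.5, 5.40 and 3.26 CPM in HFD+C2. All 6 values lay above NCD. Against NCD the log2 changes were 2.12 (standard error 0.42, edgeR adjusted p 0.0433) for HFD+C1 and 1.92 (standard error 0.46, edgeR adjusted p 0.0706) for HFD+C2. Col3a1 was at 16.6, 20.01 and 23.3 CPM in HFD+C1 and at 29.2, 20.9 and 18.3 CPM in HFD+C2, with log2 changes against NCD of 1.16 and 1.36 (edgeR adjusted p 0.0386 and 0.0491). The highest library was HFD+C2 replicate 1.

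Fn1 was at 813, 1271 and 1119 CPM in HFD+C1 and at 896, 1174 and 1303 CPM in HFD+C2. Its log2 changes against NCD were 1.70 and 1.79 (edgeR adjusted p 0.0242 and 0.0398). Vim was at 26.9, 32.2 and 29.1 CPM in HFD+C1 and 39.7, 40.2 and 28.7 CPM in HFD+C2, with log2 changes against NCD of 1.05 and 1.37 (edgeR adjusted p 0.0424 and 0.0467). Both genes were above chow in all 6 libraries of mice given a compound.

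Across all 9 libraries of mice on the diet, 5 of the 34 genes (Col1a1, Col3a1, Col5a1, Fn1 and Vim) stood above all 3 NCD libraries, where 8.45% of all tested genes did. Col15a1 stood below, where 10% of all did. Col15a1 was at 2.57 to 3.24 CPM in HFD+C1 and 2.03 to 2.55 CPM in HFD+C2 (log2 changes against NCD of -1.05 and -1.41, edgeR adjusted p 0.101 and 0.0825). Of the further lists, Col27a1, Colec11 and Steap4 were called against NCD in both compound groups. Their log2 changes were -2.09, 0.79 and 1.79 for HFD+C1 and -1.83, 1.15 and 2.14 for HFD+C2. Inhba, an activin subunit, fell in HFD+C1 (-1.55, edgeR adjusted p 0.0383) and stood at -1.04 in HFD+C2 without a call.

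These calls against chow also depended on single libraries. Leaving out any 1 of the 3 HFD+C1 libraries or NCD replicate 3 left 0 of the 34 called for HFD+C1, with 6 to 8 at an unadjusted p under 0.05. For HFD+C2 the same held for each of its libraries and for NCD replicates 2 and 3, with 7 to 12 at an unadjusted p under 0.05, and without NCD replicate 1 only Fn1 was called. Where 0 of the 34 were called, calls over all genes also fell, from 460 to between 11 and 55 for HFD+C1. For HFD+C2 they fell from 219 to between 2 and 59, and without NCD replicate 1 to 188. Without both NCD replicate 1 and HFD+C2 replicate 1, the libraries with the most unassigned reads, Col1a1, Col3a1, Fn1 and Vim were called for HFD+C2, an alternative chosen after the data were seen. In that fit 1273 of 13192 genes were called, against 219 of 13691 with all 6 libraries.

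**Figure D4:**
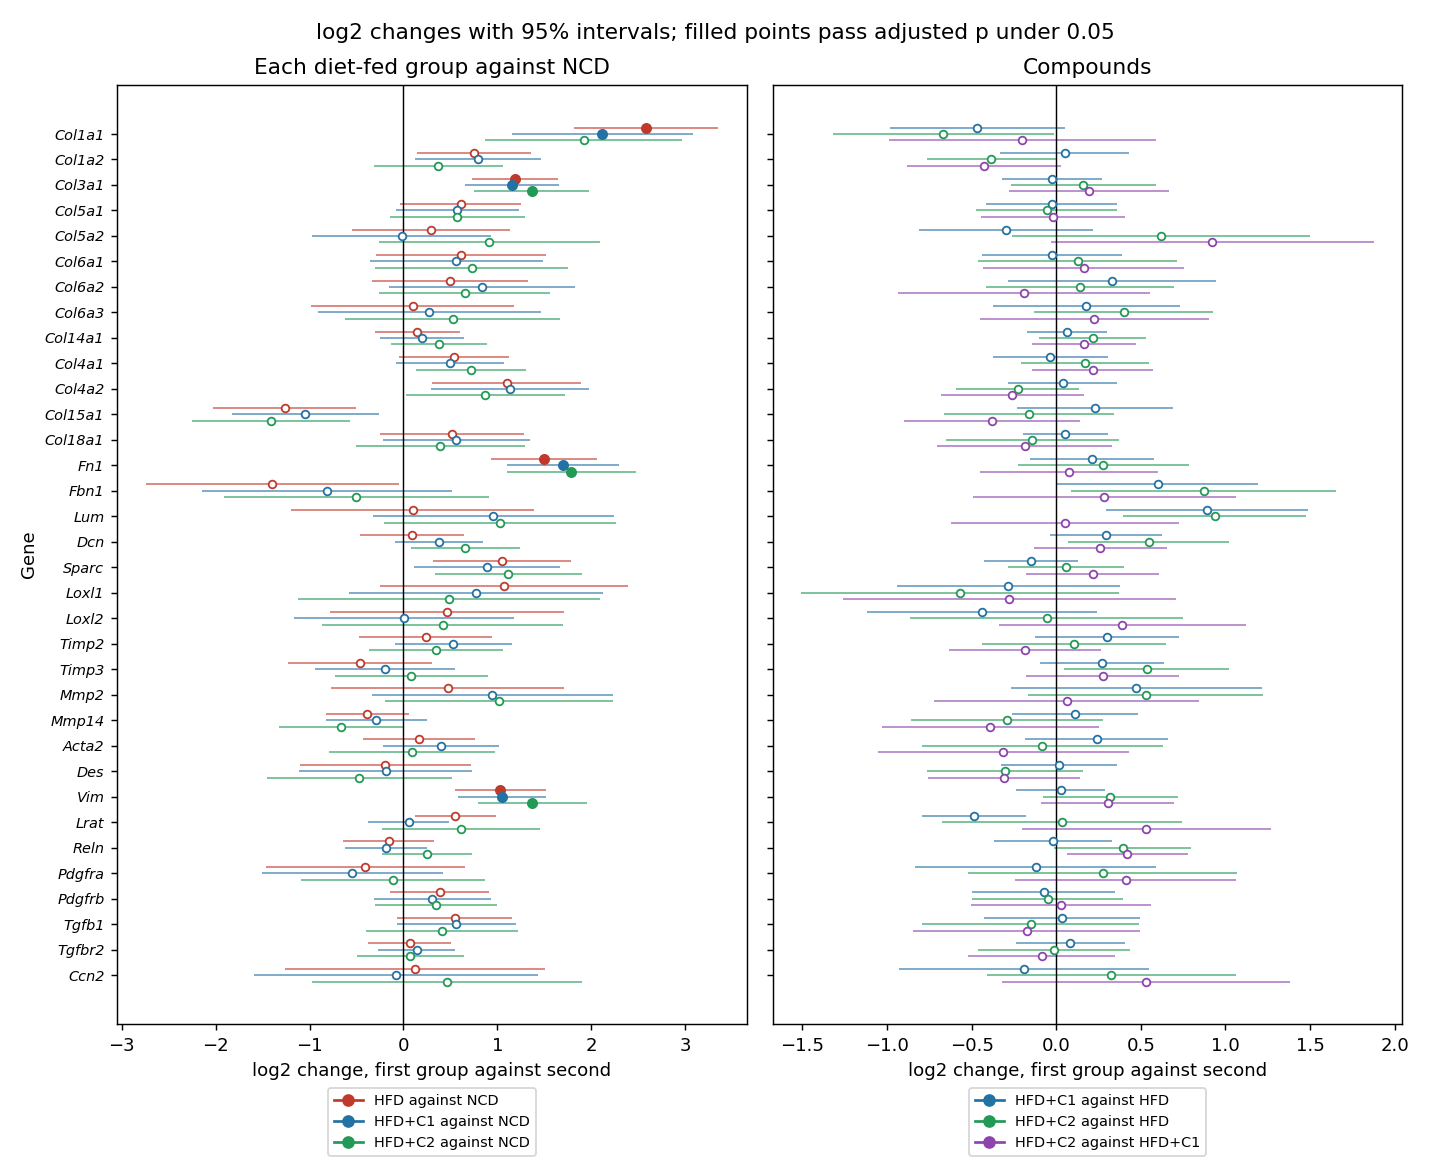
log2 changes (x axis) with 95% intervals for the 34 tested genes (y axis), with each group on the diet against NCD at the left and the compound comparisons at the right, and filled points where the edgeR adjusted p was under 0.05. Filled points are found only at the left, for Col1a1, Col3a1, Fn1 and Vim, and intervals of nearly all genes at the right include 0.

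The next comparisons asked what each compound changed in mice on the diet. With C1, edgeR called 0 of the 34 genes against HFD, as did DESeq2, where 0.0524% of 13358 genes were called, and 3 had an unadjusted p under 0.05, where 7.75% of all did. The 34 genes had a median log2 change of 0.04 beside 0.01 over all genes. The 95% interval of the log2 change ran from -0.32 to 0.27 for Col3a1, from -0.16 to 0.58 for Fn1 and from -0.24 to 0.29 for Vim. For Col1a1 it ran from -0.98 to 0.05 around -0.47, so that the HFD+C1 mean of 4.34 ± 1.61 CPM could not be told from the HFD mean of 5.91 ± 0.890 CPM (SD, n = 3).

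The 3 genes with an unadjusted p under 0.05 were Lrat, Lum and Fbn1. Lrat was at 7.83, 9 and 8.40 CPM in HFD+C1, below every HFD library and overlapping the NCD range of 7.74 to 8.65 CPM (-0.49 on the log2 scale, standard error 0.14, edgeR adjusted p 0.364). Lum was at 1.93, 3.84 and 3.30 CPM against 1.63, 1.66 and 1.55 CPM in HFD (log2 change 0.89, edgeR adjusted p 0.409). Fbn1 was at 1.78, 1.74 and 1.49 CPM (log2 change 0.60, edgeR adjusted p 0.643). None of the 3 passed the test. Over all genes tested, 6.36% stood apart as higher and 6.05% as lower, and 3 and 2 of the 34 did so, the other 2 being Col15a1 as higher and Col5a2 as lower.

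With C2, edgeR again called 0 of the 34 against HFD, as did DESeq2, where 0.0222% of 13503 genes were called, and 6 had an unadjusted p under 0.05, where 6.89% of all did. Col1a1 (log2 change -0.67, 95% interval -1.32 to -0.01) and Col1a2 (-0.38, -0.77 to -0.0023) were the 2 lower. Col1a2 was at 5.45, 5.63 and 5.69 CPM, below every HFD library, whereas Col1a1 overlapped HFD, and neither was called (edgeR adjusted p 0.695 for each). The 4 higher were Lum (0.94), Fbn1 (0.87), Dcn (0.55) and Timp3 (0.53), with the same edgeR adjusted p of 0.695. Both compound comparisons share the HFD libraries, so a change that recurs in them, as for Lum and Fbn1, is not independent.

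Lum was at 3.75, 3.05 and 2.55 CPM in HFD+C2, above every HFD library, and Dcn at 81.3, 62.0 and 57.4 CPM against 38.9, 58.4 and 39.3 CPM in HFD. The highest Lum, Dcn, Fbn1 and Timp3 values of the group were in HFD+C2 replicate 1, the library with 47.1% of its reads unassigned. The lowest Col1a1 value of the group was in that library too. Without it the log2 changes against HFD were 0.79 for Lum, 0.39 for Dcn and 0.49 for Fbn1. Over fits that each left out 1 library, the change ran from -1.04 to -0.45 for Col1a1 and from 0.42 to 0.70 for Timp3. Col3a1 changed by 0.16 (95% interval -0.27 to 0.59), Fn1 by 0.28 (-0.23 to 0.78), Vim by 0.32 (-0.08 to 0.72), Acta2 by -0.08 (-0.79 to 0.63), and Tgfb1 by -0.15 (-0.79 to 0.49). Col5a2 had 1 library far from the rest, at 6.41 CPM in HFD+C2 replicate 2 against 1.32 to 2.7 CPM in the other 11 libraries. Of the 34, 3 stood apart as higher and 2 as lower, where 6.69% and 6.94% of all genes did.

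The macrophage marker sum was above HFD in both compound groups for most libraries, at 333 to 437 CPM in HFD+C1 and 266 to 522 CPM in HFD+C2 against 214 to 282 CPM, with 0 of 12 markers called by edgeR and 10 and 6 at an unadjusted p under 0.05. The stellate marker sum was 108 to 124 CPM in HFD+C1 and 124 to 154 CPM in HFD+C2, both overlapping HFD at 122 to 136 CPM. Their part in the values of the 34 genes was not tested. Of the 5 further lists, edgeR called 0 genes under either compound. An unadjusted p under 0.05 was found for 5 of 94 genes with C1 and 4 of 93 with C2, where 7.75% and 6.89% of all genes had one.

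The compounds were compared directly at the same dose and time, as 1 pair. edgeR called 0 of the 34 genes between HFD+C2 and HFD+C1, as did DESeq2, and 0% of 13229 genes were called. At an unadjusted p under 0.05 there was 1 of the 34, where 4.6% of all genes were. That gene was Reln, at 20.3, 17.6 and 19.96 CPM with C2 and 12.3, 15.8 and 15.1 CPM with C1, with a log2 difference (C2 minus C1) of 0.42, a standard error of 0.16 and an edgeR adjusted p of 0.841.

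The intervals of the other differences show what the data could resolve. The 95% interval ran from -0.99 to 0.59 for Col1a1, from -0.28 to 0.67 for Col3a1, from -0.45 to 0.60 for Fn1, from -0.09 to 0.70 for Vim, from -0.14 to 0.57 for Col4a1, from -1.05 to 0.43 for Acta2 and from -0.84 to 0.50 for Tgfb1. For Lrat it ran from -0.20 to 1.27, with HFD+C2 at 18.9, 6.69 and 11 CPM. HFD+C2 replicates 1 and 2 thus held the highest and the lowest Lrat value of all 12 libraries. Col1a2, Col15a1 and Des stood apart as lower with C2 and Reln as higher, where 5.96% and 6.01% of all genes did.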

How the data were processed

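Liver RNA of 12 mouse libraries was measured by RNA sequencing. Per the labels' protocols, libraries were made with Advanta RNA-seq XT kits. The submitters' processing notes list Trimmomatic 0.39, STAR 2.7, DESeq2 and mm10, while the annotation, the counting and strand use are not given in the sources used here. The authors deposited 3 tables of whole-number read counts per gene symbol, called normalized by name but with unequal column totals. Each table repeats the 3 HFD columns with identical values, and 0 value columns were left unmapped. The 4 rows that name no gene held 27.3% to 58.2% of reads and were left out.

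For each pair of groups, genes averaging 10 or more counts in the 6 libraries entered edgeR 4.0.16 (R 4.3.3; TMM scaling, quasi-likelihood test, no covariates), with Benjamini-Hochberg adjustment over all tested genes. Standard errors were the log2 change over the root of the F statistic, and 95% intervals used the test's degrees of freedom. Levels are CPM scaled by TMM over the 12 libraries. Floors are CPM of gene reads without TMM scaling and cover counting error only. The fit was tested on simulated data. The genes, lists and tests were chosen with earlier results of these data known. All members were named, with full values for genes called in any comparison and for Col1a1, Col3a1, Col4a1, Acta2, Lrat, Timp1 and Tgfb1. From the further lists, called genes were named, and otherwise the 2 with the smallest p for the diet. The result of 1 gene of these lists is not reported here. Alternatives were DESeq2 1.42.0, median-ratio and library-size scaling, no filter, a replicate block, 1 fit of 12 libraries and leaving out each library.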

Additional observations from a re-analysis of the deposited data

Results flagged for a closer look

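In HFD+C2 replicate 1, 47.1% of reads were not assigned to any gene, above the HFD range of 31.9% to 32.9%. These reads took no part in the comparisons.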

How the results depend on the processing

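The count of called genes moved with the count model, the filter, the libraries fitted together and single libraries. For HFD against NCD, 4 of the 34 were called, against 7 with DESeq2, 8 with no filter and 8 with all 12 libraries in 1 fit, and 0 to 7 when 1 library was left out. For HFD+C1 against NCD, 4 became 7 with no filter and 8 with all 12 libraries, and 0 to 4 without 1 library. For HFD+C2 against NCD, 3 became 6 with DESeq2, 7 with no filter and 7 with all 12 libraries, and 0 to 1 without 1 library. The compound comparisons gave 0 under every alternative run. Over all genes, the 836 calls for HFD against NCD became 2298 with DESeq2, 4493 with no filter, 2418 with all 12 libraries and 483 with the replicate block. For HFD+C1 against NCD the 460 became 2144 with DESeq2, 3697 with no filter, 2162 with all 12 libraries and 1655 with the block. For HFD+C2 against NCD the 219 became 1425 with DESeq2, 3194 with no filter, 2620 with all 12 libraries and 785 with the block. With library-size scaling the median log2 change against NCD was 0.19 for HFD, 0.26 for HFD+C1 and 0.20 for HFD+C2, and with no filter it was 0.64 for HFD, over 36 genes. Without 1 library the median ranged from 0.28 to 0.46 for HFD against NCD and from -0.0292 to 0.20 for HFD+C2 against HFD+C1. The cause of these shifts was not tested.

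Small changes that were never called turned sign. With library-size scaling this held for HFD against NCD in Col6a3 (-0.15), Col14a1 (-0.0777), Lum (-0.0859), Dcn (-0.12), Acta2 (-0.0474), Tgfbr2 (-0.16) and Ccn2 (-0.0896), for Col3a1 under C1 (0.000887), for Lrat under C2 (-0.0284) and HFD+C1 against NCD (-0.13), and for Acta2 in HFD+C2 against NCD (-0.16). With no filter Reln was at 0.0232 for the diet. Without 1 library the ranges were -0.20 to 0.62 for Col6a3, -0.29 to 0.97 for Lum, -0.12 to 0.32 for Dcn, -0.0010 to 0.51 for Timp2, -0.0028 to 0.27 for Acta2, -0.58 to 0.56 for Des and -0.23 to 0.31 for Ccn2 (diet). Under C1 they were -0.14 to 0.0906 for Col3a1, -0.16 to 0.11 for Col4a1 and -0.17 to 0.17 for Tgfb1. Under C2 they were -0.0517 to 0.30 for Col3a1, -0.50 to 0.19 for Acta2, -0.42 to 0.33 for Lrat and -0.34 to 0.10 for Tgfb1. Between the compounds they were -0.58 to 0.13 for Col1a1, -0.0238 to 0.33 for Col3a1 and -0.36 to 0.0699 for Tgfb1, and for Acta2 in HFD+C2 against NCD -0.31 to 0.36.

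The labels number the replicates alike in each group. Deviations of same-numbered libraries correlated at -0.17 to 0.31, and in no comparison were all 3 over 0.1, so the numbers were not taken as pairs. With the replicate number as a block, 3 genes were called for HFD against NCD (Vim was not), 6 for HFD+C1 and 4 for HFD+C2 against NCD, and Des for the diet (0.0057), Lrat under C2 (-0.0719) and Acta2 in HFD+C2 against NCD (-0.0112) turned sign. Shallow NCD libraries limit low genes: 3 counts in NCD replicate 2 stood at 0.701 CPM of gene reads, without the TMM scaling of the levels.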
